A study of Mus musculus with 16 samples.

Results

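The endoplasmic reticulum (ER) is where membrane and secreted proteins enter the secretory route, fold and are checked. The genes described here are 34 of the 39179 genes counted in each library: ER chaperones, disulfide isomerases, genes of ER-associated degradation (ERAD), and the sensors, factors and effectors of the unfolded protein response. They were taken by gene symbol from a list of names, and each of the 34 symbols had exactly 1 row and passed the filter on low counts, which left 18074 genes for the tests. The list was proposed with earlier results of these data known.

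Chaperones and isomerases hold new proteins while they fold and join their disulfide bonds, and ERAD sends the ones that fail back to the cytosol for degradation. When unfolded proteins build up, the sensors Ern1 (IRE1 alpha), Eif2ak3 (PERK) and Atf6 signal to the nucleus through spliced Xbp1, through Atf4 and through cleaved Atf6. Xbp1 and Atf6 are known to act mainly on chaperone and ERAD genes, while Atf4 acts on amino acid supply genes and on Ddit3 (CHOP), a factor tied to cell death under lasting stress. In brain this system is best known from cells with a heavy secretory load and from disease models in which misfolded proteins collect.

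Adult TERT-AD mice of strain B6.129S6.SvEvTac gave samples labelled as neurons of cortex and of hippocampus, from which total RNA was taken. Mice had received tamoxifen, meant to activate Tert, the catalytic subunit of telomerase, or vehicle. The groups were cortical tamoxifen, cortical control, hippocampal tamoxifen and hippocampal control, with 4 libraries each, and neighbouring libraries, which differed less than other libraries of their group, were added to give 2 samples per group, called A and B. All 4 groups carry the TERT-AD background, and its alleles, the promoter or Cre driver that answers to tamoxifen, the mice's ages and sexes and the isolation of the neurons are not given in the sources used. The labels do not say whether samples A and B come from separate mice, so the p-values cover no more than the spread among these samples, which may be technical.

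Samples held 83527470 to 108293362 counts in genes, of which 20.35 to 31.5% were mitochondrial. Tert stood at 1.26 and 2.05 CPM (counts scaled to library size) in cortical tamoxifen samples, against 0.546 and 1.32 CPM in cortical controls, and at 0.931 and 2.04 CPM in hippocampal tamoxifen samples, against 1.29 and 3.59 CPM in hippocampal controls. It passed in neither region: the log2 fold change was 0.83 in cortex (SE 0.67, edgeR adjusted p = 0.834) and -0.72 in hippocampus (SE 0.65, edgeR adjusted p = 1). Whether transcripts of an introduced Tert sequence are counted here is not stated, so these levels may not show activation. Markers of other cells were abundant next to those of neurons: 10 oligodendrocyte markers summed to 21350 to 81950 CPM, 10 astrocyte markers to 6224 to 9188 CPM, 7 excitatory neuron markers to 4993 to 8497 CPM, and 9 general neuron markers to 1963 to 4363 CPM. The samples thus held RNA of cells other than neurons, and the word neurons for them is that of the labels. Cortical tamoxifen sample B stood apart, with the lowest oligodendrocyte sum, the highest neuron sum and the lowest mitochondrial share. Mbp and Mobp made up most of the oligodendrocyte sum. Mog, Mag and Cldn11 were higher in cortical tamoxifen B than in cortical tamoxifen A, while the other oligodendrocyte markers were lower. Markers of choroid plexus and ependyma, the secretory and ciliated linings of the ventricles, differed most between samples, and their values stand beside the results below.

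Promoter sequences are shown because the response is classically read from 2 short elements, both bound by Atf6 and NF-Y. The ER stress response element (ERSE) was searched as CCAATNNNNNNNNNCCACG and the second form (ERSE-II) as ATTGG, 1 free base and CCACG, on both strands, in RefSeq windows of GRCm38.p6 from 250 bases before to 50 bases after each gene start. The 32 windows covered 29 of the 34 genes, with none for Hspa13, Atf6, Hyou1, Derl1 and Manf. ERSE was found in 9 of 32 windows (28.1%), against 39 of all 32851 windows (0.119%). ERSE-II was found in 2 windows (6.25%), against 0.0365% of all windows. A match is a run of letters and does not show binding. The genes were listed by name as parts of this response, so a high share of matches among them is no independent finding. In the stretches below, from GRCm38.p6 in the direction of the gene, capitals mark the fixed letters of each match, and a match on the opposite strand reads CGTGG first and ATTGG second.
Hspa5: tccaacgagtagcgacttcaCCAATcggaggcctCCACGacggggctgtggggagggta
Calr: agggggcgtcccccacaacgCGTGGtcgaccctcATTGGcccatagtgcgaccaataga
Canx: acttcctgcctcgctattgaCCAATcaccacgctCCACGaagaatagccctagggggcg
Pdia6: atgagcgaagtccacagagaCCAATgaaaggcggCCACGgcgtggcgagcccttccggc
Creld2: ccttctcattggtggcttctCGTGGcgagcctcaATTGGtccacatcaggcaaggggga
Herpud1: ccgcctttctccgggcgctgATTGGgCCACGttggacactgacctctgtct

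These stretches lie at chr2:34772005-34772063 for Hspa5 (plus strand), chr8:84847055-84847113 for Calr (minus strand), chr11:50325780-50325838 for Canx (minus strand), chr12:17266471-17266529 for Pdia6 (plus strand), chr15:88819500-88819558 for Creld2 (plus strand) and chr8:94386357-94386407 for Herpud1 (plus strand). The Hspa5 match sits 65 to 47 bases before the RefSeq start, and the Herpud1 match, the only ERSE-II among the printed stretches, 52 to 42 bases before it. Derl3, Dnajc3, Syvn1 and Hsp90b1 also hold ERSE, and Hsp90b1 holds 2 matches, shown with the strands opposed.
Hsp90b1, farther match: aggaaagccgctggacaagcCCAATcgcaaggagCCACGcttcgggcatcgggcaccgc
Hsp90b1, nearer match: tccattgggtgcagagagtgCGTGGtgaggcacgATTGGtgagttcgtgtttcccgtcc

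They lie at chr10:86705618-86705676 and chr10:86705513-86705571, both on the minus strand. The C/EBP-ATF element read by Atf4, searched as TGATGNAA, was found in windows of Asns, Chac1, Trib3, Herpud1 and Txndc5 (15.6% of the 32 windows, against 3.97% of all windows). The 3 effectors all carried it in this window, but they were listed as Atf4 or CHOP targets beforehand, and an 8-letter pattern with 1 free letter is common.

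Among the 34 genes the levels spanned a wide range. Per kilobase of exon, the mean level in hippocampal controls was highest for the lectin chaperone Calr at 89.3 CPM per kb, then for Hspa5 at 70.3, Canx at 56.1, Pdia3 at 47.6 and Hsp90b1 at 45.4. The lowest were Ern1 at 1.401, Trib3 at 0.425, Derl3 at 0.346 and Chac1 at 0.232 CPM per kb. Atf4 was the most abundant of the sensors and factors at 34.9 CPM per kb, ahead of Xbp1 at 12.2 and Ddit3 at 11.96. In cortical controls the order at the top was Calr at 48.3, Canx at 48.2, Atf4 at 32.5 and Hsp90b1 at 28.2 CPM per kb, with Hspa5 next at 26.6. Hspa5 varied most among the chaperones, with a highest sample 3.15 times its lowest, while Canx varied 1.48 times and Sec61b, a subunit of the translocation channel, 1.34 times.

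**Figure D1:**
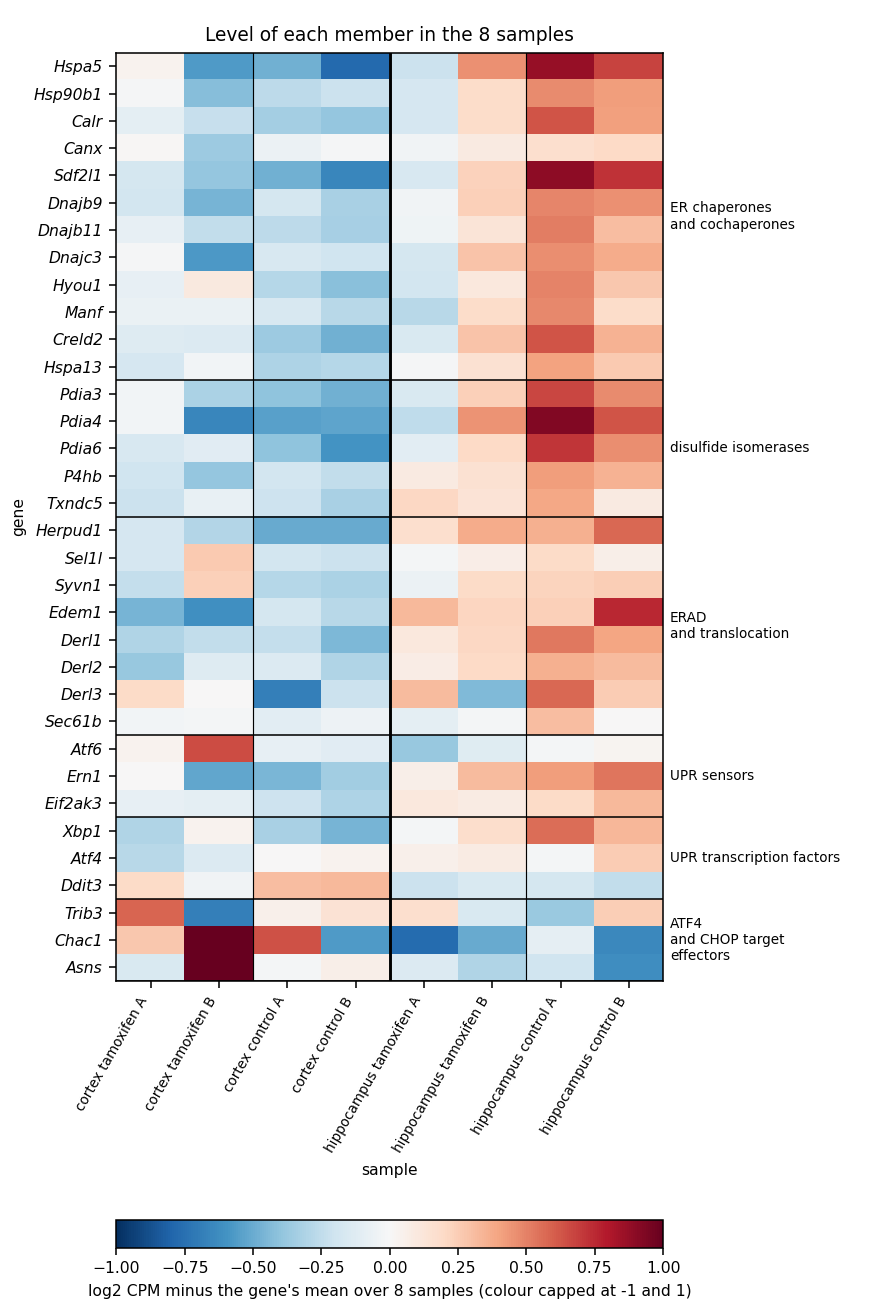
Level of each of the 34 genes in the 8 samples, as log2 CPM minus the gene's mean over the 8 samples (colour, capped at -1 and 1), with genes grouped by role and samples along the horizontal axis. Chaperones and isomerases are highest in the 2 hippocampal control samples, apart from Manf and Txndc5, whose control B lies below at least 1 tamoxifen sample, and Asns stands high in cortical tamoxifen sample B alone.

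Hippocampal against cortical controls was the sole comparison in which genes passed the test. Of the 34 genes, 15 rose in hippocampal over cortical controls at an edgeR adjusted p under 0.05 and 0 fell, while over all 18074 genes 2.71% rose and 3.48% fell. The 15 were 8 of the 12 chaperones (Hspa5, Calr, Sdf2l1, Dnajb9, Dnajb11, Hyou1, Creld2 and Hspa13), 4 of the 5 isomerases (Pdia3, Pdia4, Pdia6 and P4hb), 2 of the 8 ERAD and translocation genes (Herpud1 and Derl1) and 1 of the 3 factors (Xbp1). The levels of both hippocampal controls lay above both cortical controls for 29 genes and below them for 2, where the shares over all genes were 34.6% and 33.4%. The median log2 fold change was 0.66 over the 34 genes and 0.002 over all genes.

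Hspa5, also called BiP, is the Hsp70-family chaperone of the ER lumen and the partner that keeps the sensors inactive. It stood at 264 and 230 CPM in hippocampal controls, against 103 and 83.7 CPM in cortical controls, with the log2 fold change at 1.40 (SE 0.28, edgeR adjusted p = 0.0403). Sdf2l1, a small partner of the ER Hsp40 Dnajb11, stood at 13.0 and 11.6 CPM in hippocampal controls, against 5.02 and 4.45 CPM in cortical controls (log2 fold change 1.37, SE 0.18, edgeR adjusted p = 0.0227). In both genes each hippocampal control was more than double each cortical control. Calr, a calcium-binding lectin chaperone, stood at 276 and 237 CPM in hippocampal controls, against 141 and 136 CPM in cortical controls (log2 fold change 0.89, SE 0.16, edgeR adjusted p = 0.0334). Its membrane-bound counterpart Canx did not pass, at 260 and 265 CPM in hippocampal controls against 222 and 229 CPM in cortical controls (log2 fold change 0.22, SE 0.15, edgeR adjusted p = 0.388). The groups did not overlap for Canx either, but the gap was small beside that of Calr. Hsp90b1 (GRP94), the Hsp90 of the ER, had a log2 fold change of 0.69 (SE 0.18) and missed the threshold at an edgeR adjusted p of 0.0669.

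Between the control groups the isomerases had a median log2 fold change of 1.01 (range 0.51 to 1.32), against 0.72 for the chaperones (range 0.22 to 1.40). Pdia6 stood at 70.2 and 58.8 CPM in hippocampal controls, against 32.4 and 28.3 CPM in cortical controls (log2 fold change 1.09, SE 0.16, edgeR adjusted p = 0.0245). Pdia3, which works on glycoproteins held by Calr and Canx, stood at 159 and 139 CPM in hippocampal controls, against 75.8 and 71.7 CPM in cortical controls (log2 fold change 1.01, SE 0.18, edgeR adjusted p = 0.0327). Both genes separated the regions by a wide margin. Pdia4, named after its values were seen, differed by 1.32 on the log2 scale (SE 0.29, edgeR adjusted p = 0.0449), and P4hb, the classical disulfide isomerase, by 0.60 (SE 0.12, edgeR adjusted p = 0.0386).

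In ERAD, Herpud1, a membrane scaffold of the Syvn1 ligase complex, stood at 32.6 and 37.8 CPM in hippocampal controls, against 17.95 and 17.94 CPM in cortical controls (log2 fold change 0.97, SE 0.14, edgeR adjusted p = 0.0241). Derl1, a channel-like protein of retrotranslocation, stood at 46.1 and 42.0 CPM in hippocampal controls, against 27.0 and 23.4 CPM in cortical controls (log2 fold change 0.81, SE 0.13, edgeR adjusted p = 0.0282). The ligase Syvn1 (HRD1) and its adaptor Sel1l did not pass, with log2 fold changes of 0.53 (SE 0.18, edgeR adjusted p = 0.110) and 0.33 (SE 0.16, edgeR adjusted p = 0.224).

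The sensors and factors were less alike. Xbp1 stood at 42.5 and 36.3 CPM in hippocampal controls, against 23.1 and 20.9 CPM in cortical controls (log2 fold change 0.84, SE 0.16, edgeR adjusted p = 0.0384). Gene counts do not separate spliced from unspliced Xbp1, so its splicing was not analysed here. Ern1 stood at 10.9 and 11.9 CPM in hippocampal controls, against 5.97 and 6.46 CPM in cortical controls, just short of the threshold (log2 fold change 0.88, SE 0.20, edgeR adjusted p = 0.0502). Eif2ak3 was also just short, at 12.7 and 13.9 CPM in hippocampal controls against 9.66 and 8.99 CPM in cortical controls (log2 fold change 0.51, SE 0.12, edgeR adjusted p = 0.0511). Atf6 stood at 28.9 and 29.8 CPM in hippocampal controls, against 27.6 and 27.0 CPM in cortical controls, with the log2 fold change at 0.10 (SE 0.21, edgeR adjusted p = 0.778). Atf4 overlapped between the regions, at 54.4 and 65.6 CPM in hippocampal controls against 55.3 and 56.4 CPM in cortical controls (log2 fold change 0.10, SE 0.13, edgeR adjusted p = 0.642). Ddit3 was the sole factor with lower values in hippocampal controls, at 20.9 and 19.9 CPM against 29.3 and 29.6 CPM in cortical controls (log2 fold change -0.53, SE 0.12, edgeR adjusted p = 0.0520). None of the 3 effectors Trib3, Chac1 and Asns passed, and their log2 fold changes were -0.12, -0.50 and -0.42.

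**Figure D2:**
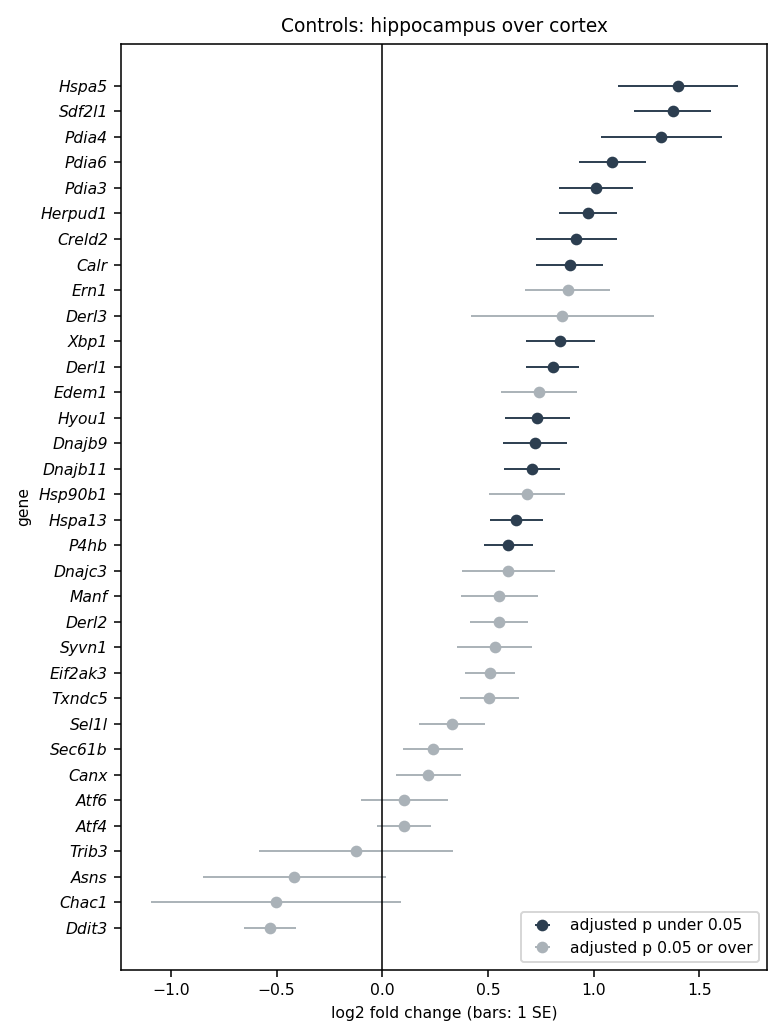
Log2 fold change of hippocampal over cortical controls (horizontal axis) for each of the 34 genes, ordered by size, with bars of 1 SE from the edgeR fit. The 15 dark points have an adjusted p under 0.05 and all lie above 0, while Ddit3 lies lowest at -0.53.

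The region calls rest on both samples of each control group. Without any 1 of the 4 control samples (cortical control A or B, hippocampal control A or B) 0 of the 34 genes passed, in fits that also lost 1 of 4 residual degrees of freedom; the median log2 fold change was then 0.59 to 0.70. All groups share the estimate of spread, so the tamoxifen samples also count. Leaving out hippocampal tamoxifen A gave 7 calls among 404 in all genes, hippocampal tamoxifen B 8 among 433, cortical tamoxifen A 25 among 3915 and cortical tamoxifen B 25 among 3873. DESeq2 called 22 of the 34 genes among 3101 of 26901 genes, including Ddit3, lower in hippocampal controls (DESeq2 adjusted p = 0.0118). Scaling by total counts gave a median of 0.385 over all genes, against 0.002 with TMM scaling, and a split of all calls of 1910 higher and 154 lower, against 489 and 629 with TMM scaling. It called 22 of the 34 genes, whose median was then 1.05.

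Cell type markers also differed between the control groups. The 10 choroid plexus and ependyma markers summed to 20270 and 10740 CPM in hippocampal controls, against 1479 and 83.0 CPM in cortical controls, with 10 of 10 genes not overlapping and higher. Ttr, the secreted thyroxine carrier that marks choroid plexus, made up most of this sum, at 13970 and 6776 CPM in hippocampal controls against 1011 and 4.62 CPM in cortical controls, and the potassium channel Kcnj13 was at 0 in cortical control B. Of the 10 microglia markers 9 were higher without overlap, as were 7 of 8 mural and 7 of 7 oligodendrocyte precursor markers. So were 7 of 7 fibroblast and 6 of 7 dentate granule and hippocampal pyramidal neuron markers. Lower without overlap were 9 of 9 general, 8 of 8 inhibitory and 6 of 7 excitatory neuron markers. Of the 10 astrocyte markers 4 were higher and 3 lower. Without overlap 34.6% of all genes were higher and 33.4% lower. The part of these markers in the result was not tested. In bulk samples fewer cells of a type and less RNA per cell cannot be told apart. Hippocampal tamoxifen sample A had a choroid plexus sum of 133 CPM, which lies between those of the cortical controls, and 26 of the 34 genes were higher in it than in both cortical controls (76.5%, against 38.8% of all genes). This is 1 sample, chosen after its values were seen, that differs from the cortical controls in treatment as well as in region, and no test was made.

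In hippocampal neurons, tamoxifen against control left no gene past the threshold, and almost all values of the 34 genes pointed one way. The edgeR test called 0 of the 34 genes and 0.0% of all 18074 genes, and the adjusted p of every one of the 34 was 1. Log2 fold changes were negative for 31 genes and positive for 3, with a median of -0.29, against -0.007 over all genes, of which 51.3% were negative. Both tamoxifen samples lay below both controls for 23 genes and above them for 0, where the shares over all genes were 18.9% and 21.0%. At an unadjusted p under 0.05 there were 9 genes lower and 0 higher, with background shares of 1.47% and 2.14%. DESeq2 also called 0 of the 34 genes. The hippocampal controls are the same samples as in the region comparison, so a high value in them enters both.

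All 12 chaperones and all 5 isomerases had negative values, and 11 and 4 of them did not overlap between the groups. Sdf2l1 stood at 6.29 and 8.24 CPM in hippocampal tamoxifen samples, against 13.0 and 11.6 CPM in hippocampal controls (log2 fold change -0.76, SE 0.18). Calr stood at 159 and 202 CPM in tamoxifen samples, against 276 and 237 CPM in controls (log2 fold change -0.51, SE 0.16). Hspa5 stood at 124 and 197 CPM in tamoxifen samples, against 264 and 230 CPM in controls (log2 fold change -0.62, SE 0.28). For these 3 genes tamoxifen sample A was the lowest of the 4 hippocampal samples and control A the highest. Dnajb11, an Hsp40 that hands clients to Hspa5, stood at 22.3 and 25.1 CPM in tamoxifen samples, against 32.8 and 28.5 CPM in controls (log2 fold change -0.37, SE 0.13). Hyou1, the exchange factor of Hspa5, stood at 34.3 and 41.7 CPM in tamoxifen samples, against 54.8 and 46.7 CPM in controls (log2 fold change -0.42, SE 0.15).

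Pdia6 stood at 39.6 and 48.9 CPM in hippocampal tamoxifen samples, against 70.2 and 58.8 CPM in hippocampal controls (log2 fold change -0.54, SE 0.16). Pdia3 stood at 90.2 and 119 CPM in tamoxifen samples, against 159 and 139 CPM in controls (log2 fold change -0.51, SE 0.17). In each of these isomerases the higher tamoxifen sample stayed under the lower control. ERAD genes had smaller differences, with log2 fold changes of -0.43 (Derl3) to -0.10 (Sel1l) and 4 of 8 genes not overlapping.

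The 3 sensors lay lower in both hippocampal tamoxifen samples than in both controls, with small gaps. Ern1 stood at 8.52 and 10.2 CPM in tamoxifen samples, against 10.9 and 11.9 CPM in controls (log2 fold change -0.29, SE 0.20). Atf6 stood at 22.5 and 26.8 CPM in tamoxifen samples, against 28.9 and 29.8 CPM in controls (log2 fold change -0.25, SE 0.20). Eif2ak3 stood at 11.96 and 11.77 CPM in tamoxifen samples, against 12.7 and 13.9 CPM in controls (log2 fold change -0.16, SE 0.12). Of the factors, Xbp1 did not overlap between the groups, at 28.5 and 32.7 CPM in tamoxifen samples against 42.5 and 36.3 CPM in controls (log2 fold change -0.37, SE 0.16). Atf4 stood at 57.0 and 58.4 CPM in tamoxifen samples, between the 54.4 and 65.6 CPM of the controls, and Ddit3 at 20.4 and 21.3 CPM in tamoxifen samples, against 20.9 and 19.9 CPM in controls. The 3 positive values belonged to Ddit3 at 0.03, Trib3 at 0.05 and Asns at 0.18, and the value of Ddit3 turned to -0.007 with scaling by total counts.

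**Figure D3:**
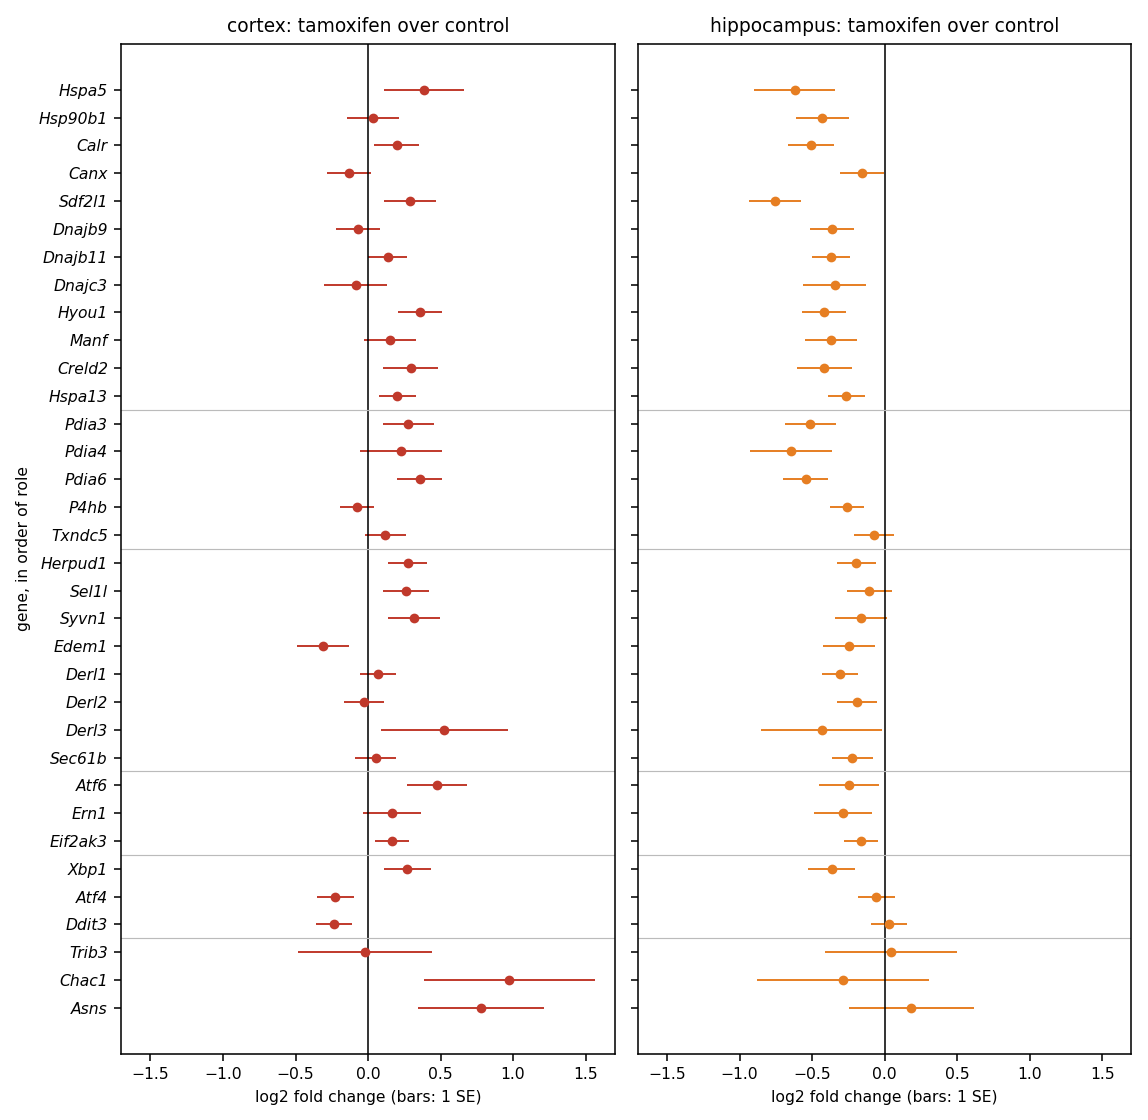
Log2 fold change of tamoxifen over control in cortical neurons (left) and hippocampal neurons (right) for each of the 34 genes, grouped by role, with bars of 1 SE from the edgeR fit. In hippocampus 31 of the points lie below 0 and in cortex 25 lie above it, and no point passed the test in either region.

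Within the tamoxifen group, sample A had the lower value for most genes. It was the lowest of the 4 hippocampal samples for 26 of the 34 genes (76.5%), against 30.4% of all genes, and control A was the highest for 23 (67.6%), against 28.6%. Without hippocampal tamoxifen A the median was -0.19, against -0.011 over all genes, and 32 of 34 values were negative. Without hippocampal control A the median was -0.26, against -0.016 over all genes, and 30 of 34 values stayed negative.

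The choroid plexus and ependyma sum was 133 and 10440 CPM in hippocampal tamoxifen samples A and B, against 20270 and 10740 CPM in hippocampal controls, so the sample with the lowest chaperone levels also had the lowest sum and control A the highest of both. Of these 10 markers 6 were lower without overlap, as were 4 of 10 oligodendrocyte markers, where 18.9% of all genes were. Higher without overlap were 8 of 8 inhibitory neuron, 5 of 9 general neuron, 6 of 10 astrocyte and 3 of 7 oligodendrocyte precursor markers, where 21.0% of all genes were. Their part in the result was not tested. Samples B of the 2 groups had nearly equal choroid plexus sums but differed in other sums. The microglia sum was 1495 CPM in tamoxifen B against 2366 CPM in control B, and the astrocyte sum 8073 against 7348 CPM. Of the 34 genes 28 were lower in tamoxifen B than in control B, where 49.9% of all genes were. The median log2 difference between these 2 samples was -0.17 over the 34 genes and 0.0 over all genes, a comparison of single samples that was chosen after their values were seen and has no test.

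**Figure D4:**
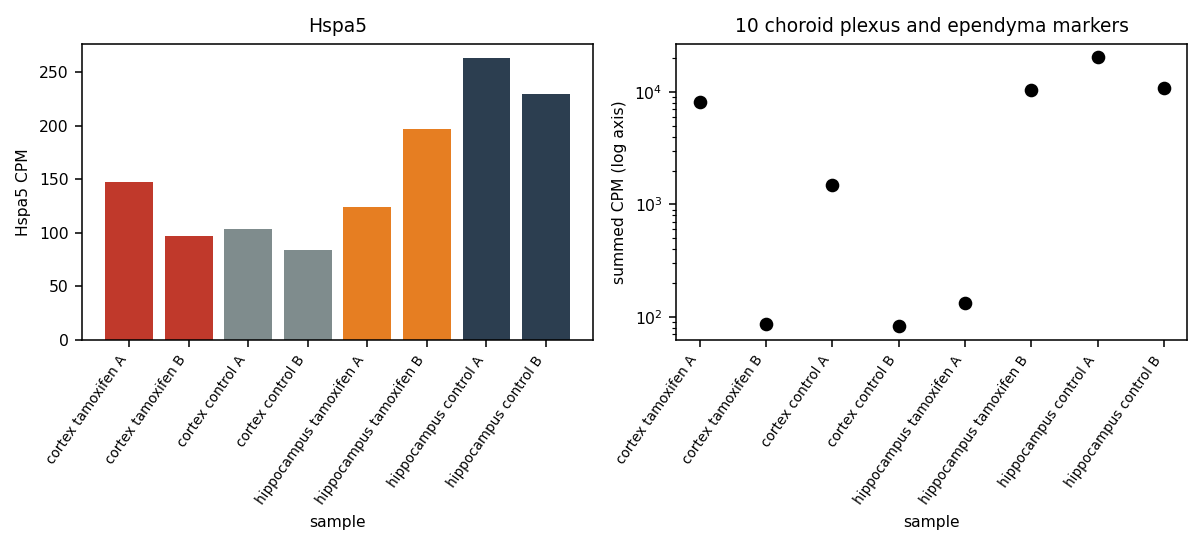
Hspa5 in CPM (left, bars from 0) and the summed CPM of 10 choroid plexus and ependyma markers (right, log axis) in each of the 8 samples. Hippocampal tamoxifen A, at 124 CPM of Hspa5 and a marker sum of 133 CPM, lies below the other 3 hippocampal samples in both. Cortical tamoxifen A, at 147 CPM and 8133 CPM, lies above the other 3 cortical samples in both. Hspa5 does not stand for all 34 genes here. Among the cortical samples, tamoxifen A was highest for 15 of the 34 genes (44.1%, against 27.5% of all genes). Cortical tamoxifen B, with a marker sum of 87.1 CPM, was highest for 13 (38.2%, against 38.7% of all genes).

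In cortical neurons, tamoxifen against control gave 0 calls among the 34 genes and 0.0% over all genes in edgeR, with adjusted p-values of 0.830 to 0.991. Values were positive for 25 genes and negative for 9, with a median of 0.18, against 0.04 over all genes, of which 55.4% were positive. Both tamoxifen samples lay above both controls for 17 genes and below them for 3, where the shares over all genes were 16.2% and 15.0%. No gene of the 34 had an unadjusted p under 0.05 in edgeR, although 2.47% of all genes did with higher and 2.51% with lower values, and DESeq2 called 0 of the 34 and had 1 of them at an unadjusted p under 0.05. Scaling by total counts gave 31 positive values and a median of 0.376 for the 34 genes, with a median of 0.247 over all genes.

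Among the chaperones, Hyou1 had the smallest p of the 34 genes, at 36.7 and 41.5 CPM in cortical tamoxifen samples against 31.9 and 29.1 CPM in cortical controls (log2 fold change 0.36, SE 0.15). Calr stood at 166 and 152 CPM in tamoxifen samples, against 141 and 136 CPM in controls (log2 fold change 0.20, SE 0.16). Hspa5 overlapped between the groups, at 147 and 96.9 CPM in tamoxifen samples against 103 and 83.7 CPM in controls (log2 fold change 0.39, SE 0.28). Sdf2l1 did not overlap, at 6.22 and 5.37 CPM in tamoxifen samples against 5.02 and 4.45 CPM in controls (log2 fold change 0.29, SE 0.18), nor did Dnajb11, at 21.8 and 19.4 CPM against 19.2 and 18.3 CPM in controls (log2 fold change 0.14, SE 0.13). In each of these 5 genes the gap was smaller than the difference between the control regions.

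Pdia6 stood at 38.2 and 39.4 CPM in cortical tamoxifen samples, against 32.4 and 28.3 CPM in cortical controls (log2 fold change 0.36, SE 0.16). Pdia3 stood at 98.4 and 80.6 CPM in tamoxifen samples, against 75.8 and 71.7 CPM in controls (log2 fold change 0.28, SE 0.17). Both were higher in each tamoxifen sample than in either control. Herpud1 stood at 22.7 and 20.7 CPM in tamoxifen samples, against 17.95 and 17.94 CPM in controls (log2 fold change 0.27, SE 0.13), while Edem1, a lectin that picks glycoproteins for ERAD, had a negative value, at 17.77 and 15.98 CPM in tamoxifen samples against 21.6 and 20.2 CPM in controls (log2 fold change -0.31, SE 0.18).

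The sensor Atf6 stood at 29.9 and 46.0 CPM in cortical tamoxifen samples, against 27.6 and 27.0 CPM in cortical controls (log2 fold change 0.48, SE 0.21), so most of its gap came from sample B. Ern1 overlapped, at 8.23 and 5.72 CPM in tamoxifen samples against 5.97 and 6.46 CPM in controls, and Eif2ak3 stood at 10.5 and 10.4 CPM in tamoxifen samples against 9.66 and 8.99 CPM in controls. Of the factors, Xbp1 stood at 23.5 and 29.6 CPM in tamoxifen samples, against 23.1 and 20.9 CPM in controls (log2 fold change 0.27, SE 0.16), with 0.43 without tamoxifen A and 0.092 without tamoxifen B. Atf4 and Ddit3 had negative values without overlap under TMM scaling, but with scaling by total counts the groups overlapped and the values were -0.01 and -0.048. Atf4 stood at 45.5 and 50.02 CPM in tamoxifen samples, against 55.3 and 56.4 CPM in controls (log2 fold change -0.23, SE 0.13), and Ddit3 at 27.1 and 23.1 CPM, against 29.3 and 29.6 CPM in controls (log2 fold change -0.23, SE 0.12).

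Asns, the asparagine synthetase driven by Atf4, stood at 8.52 and 24.3 CPM in cortical tamoxifen samples A and B, against 9.34 and 9.82 CPM in controls, with the log2 fold change at 0.78 (SE 0.43, edgeR adjusted p = 0.830). Sample B alone was high, and without it the value was -0.17. Chac1, which degrades glutathione, was likewise highest in sample B, at 0.580 and 1.52 CPM in tamoxifen samples against 0.748 and 0.324 CPM in controls, and Trib3 was lowest there, at 1.38 and 0.572 CPM in tamoxifen samples against 0.949 and 1.01 CPM in controls. The 3 effectors thus did not lie high together in that sample.

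Without cortical tamoxifen A, so that sample B alone stood for treatment and was assumed to vary like the other groups, 4 of the 34 genes passed (Asns, Atf6, Sel1l and Syvn1), among 2014 genes in all. Asns then had a log2 fold change of 1.34 (edgeR adjusted p = 0.0122) and Atf6 of 0.75 (edgeR adjusted p = 0.0211), while Ern1 turned to -0.12. Without cortical tamoxifen B, 0 passed, and Atf6 had a value of 0.13. Sample B was the one that stood apart in the sums of oligodendrocyte and neuron markers. The choroid plexus and ependyma sum was 8133 and 87.1 CPM in cortical tamoxifen samples A and B, against 1479 and 83.0 CPM in controls. Lower without overlap were 8 of 10 astrocyte, 4 of 8 mural, 3 of 10 microglia and 2 of 7 oligodendrocyte precursor markers, where 15.0% of all genes were. Higher without overlap were 2 of 7 dentate granule and hippocampal pyramidal neuron markers, where 16.2% of all genes were. The part of these markers in the result was not tested. The 2 samples B had nearly equal choroid plexus sums but differed in other sums. The oligodendrocyte sum was 21350 CPM in tamoxifen B against 63400 CPM in control B, and the general neuron sum 4363 against 3307 CPM. Between them 23 of the 34 genes were higher in tamoxifen B, where 52.8% of all genes were. The median log2 difference was 0.21, against 0.04 over all genes, again without a test.

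**Figure D5:**
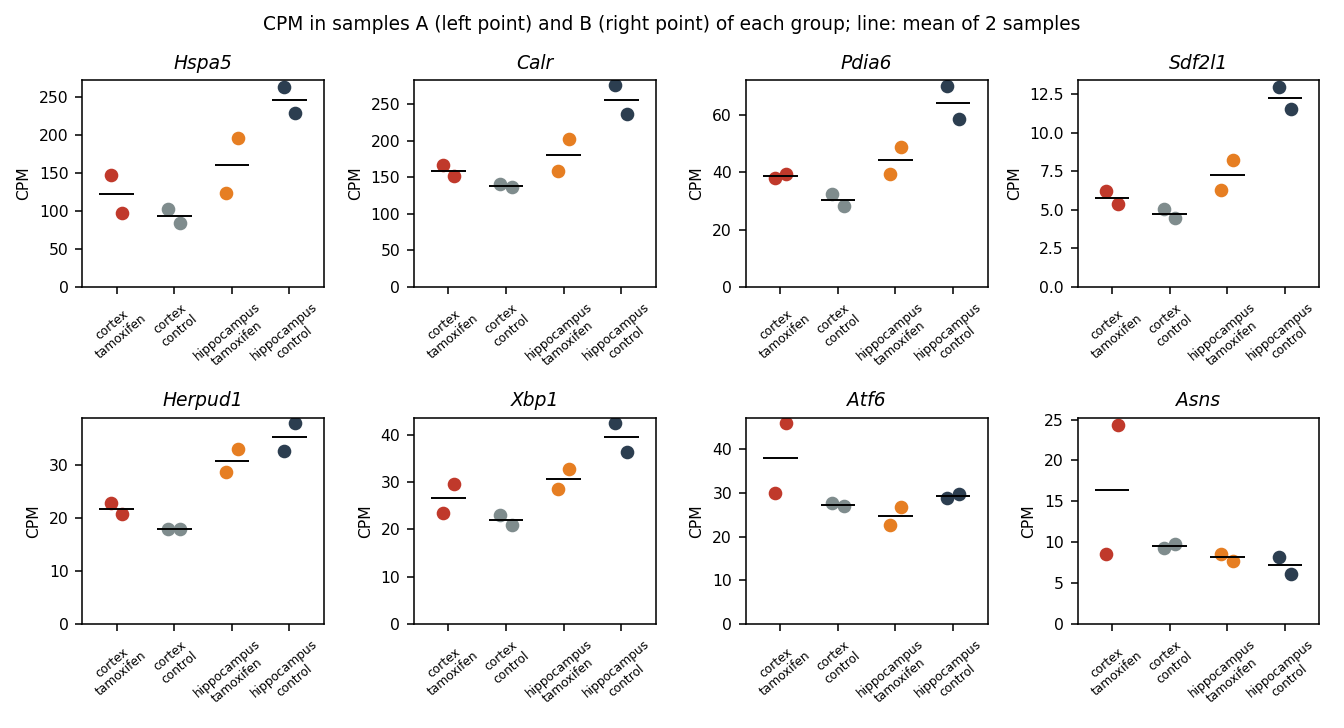
CPM of 8 genes in samples A (left point) and B (right point) of cortical tamoxifen, cortical control, hippocampal tamoxifen and hippocampal control neurons, with each axis starting at 0 and a line at the mean of 2 samples. Hspa5, Calr, Pdia6 and Sdf2l1 are highest in both hippocampal controls, and Atf6 and Asns are highest in cortical tamoxifen sample B (46.0 and 24.3 CPM).

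The tamoxifen effects of the regions were set against each other in the same fit, as the hippocampal minus the cortical log2 fold change. This difference passed for 0 of the 34 genes and 0.0% of all genes in edgeR, with a smallest adjusted p of 0.889, and DESeq2 called 0 of the 34. It was negative for 30 genes, with a median of -0.47, against -0.04 over all genes, of which 54.2% were negative. At an unadjusted p under 0.05 there were 12 genes lower and 0 higher, where the shares over all genes were 2.77% and 2.66%. Scaling by total counts gave a median of -0.28 over all genes, and 33 of the 34 values were then negative.

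The 6 genes of smallest p were Pdia6 at -0.90 (SE 0.22), Sdf2l1 at -1.05 (SE 0.26), Hyou1 at -0.78 (SE 0.22), Pdia3 at -0.79 (SE 0.25), Calr at -0.70 (SE 0.22) and Xbp1 at -0.64 (SE 0.23). The value farthest from 0 was that of Chac1 at -1.26, with a wide error (SE 0.84), and Hspa5 at -1.01 (SE 0.39), Derl3 at -0.96 (SE 0.61) and Pdia4 at -0.87 (SE 0.40) were also large. For 13 of the 34 genes (38.2%) both cortical tamoxifen samples lay above both cortical controls and both hippocampal tamoxifen samples below both hippocampal controls, a pattern met by 4.05% of all genes. The 13 were Calr, Pdia3, Pdia6, Sdf2l1, Dnajb11, Hyou1, Creld2, Hspa13, Syvn1, Sec61b, Atf6, Eif2ak3 and Xbp1. With scaling by total counts Syvn1, Sec61b and Xbp1 overlapped between the cortical groups and left the pattern. Other genes, among them Hspa5, Hsp90b1, Pdia4 and Ern1, met it only with that scaling, for which the share over all genes was not taken. Canx was the chaperone nearest to no difference, at -0.02 (SE 0.22). Counting the 16 libraries separately, which makes p-values too small where neighbours are repeats of 1 sample, gave 13 calls among 867 of 16746 genes, and treating neighbours as correlated in limma gave 3 (Calr, Pdia3 and Pdia6) among 112 of 16746.

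Other genes of the pathway were taken from 3 wider lists. Among 60 tested genes of ER folding and translocation, 10 rose in hippocampal over cortical controls and 0 fell, beside 2.71% and 3.48% of all genes, and 51 values were positive. They included the oligosaccharyltransferase subunits Rpn1, Rpn2 and Stt3a, with log2 fold changes of 0.67, 0.67 and 0.84 (edgeR adjusted p = 0.0392, 0.0327 and 0.0386), the glucosidase subunit Ganab at 0.72 (edgeR adjusted p = 0.0327) and the glucose transferase Uggt1 at 0.65 (edgeR adjusted p = 0.0416), which send glycoproteins to Calr and Canx. The other 5 were Fkbp14, Srpr, Erp44, Lman1 and Kdelr2. In hippocampal tamoxifen samples 52 of the 60 values were negative, 32 of them without overlap, beside 18.9% of all genes. None passed there, with 4 lower and 0 higher at an unadjusted p under 0.05, beside 1.47% and 2.14% of all genes. In cortical tamoxifen samples 42 were positive and none passed, with 2 higher and 1 lower at an unadjusted p under 0.05, beside 2.47% and 2.51% of all genes. The smallest p-values were those of Srpr (-0.41, SE 0.14) and Tmx3 (-0.31, SE 0.12) in hippocampus and of Dnajc1 (-0.39, SE 0.14) and Cdnf (0.78, SE 0.30) in cortex.

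Among 34 tested ERAD genes outside the described set, 1 rose in hippocampal over cortical controls, Vimp at 0.70 (SE 0.12, edgeR adjusted p = 0.0327), a share near the 2.71% of all genes. None passed under tamoxifen, where 24 values were negative in hippocampus, with 1 lower at an unadjusted p under 0.05, and 22 were positive in cortex, with 0. Of all genes, 1.47% were lower and 2.14% higher at that edgeR p in hippocampus. In cortex 2.47% were higher and 2.51% lower. Among 65 tested genes of signalling and Atf4 targets, the directions were mixed, with 27 positive and 38 negative values in hippocampal tamoxifen samples and 28 positive and 37 negative in cortical ones. Again none passed, with 2 at an unadjusted p under 0.05 in hippocampus (1 in each direction) and 2 higher and 5 lower in cortex. These counts, of 65 genes, stand beside the same shares of all genes. Between the controls 3 rose in hippocampus: Mbtps2, a protease that cleaves Atf6, at 1.01 (SE 0.18, edgeR adjusted p = 0.0330), Slc3a2, an amino acid transporter subunit, at 0.64 (SE 0.12, edgeR adjusted p = 0.0373), and Ppp1r15b at 0.53 (SE 0.12, edgeR adjusted p = 0.0492). Nupr1 fell, at -1.39 (SE 0.17, edgeR adjusted p = 0.0187). These 3 and 1 of 65 genes stand beside 2.71% and 3.48% of all genes.

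The cystine transporter Slc7a11, an Atf4 target, had the smallest p of that list in both regions with opposite signs. It stood at 38.5 and 36.5 CPM in cortical tamoxifen samples, against 55.9 and 50.7 CPM in cortical controls (log2 fold change -0.51, SE 0.12, edgeR adjusted p = 0.830). In hippocampus it stood at 57.0 and 52.4 CPM in tamoxifen samples, against 43.0 and 39.7 CPM in controls (log2 fold change 0.41, SE 0.12, edgeR adjusted p = 1). These signs are the reverse of those of most chaperones.

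ERSE, taken without ERSE-II, did not sort the genes by region call. Of the 9 genes with ERSE in their window 4 rose in hippocampal over cortical controls (Calr, Creld2, Hspa5 and Pdia6), and of the 20 with a window but no ERSE 8 did. Those 8 include Dnajb11 and Herpud1, which hold ERSE-II, so the split depends on where these genes are placed. Canx, with a match printed above, differed little between the groups, and Sdf2l1, with none in its window, differed most beside Hspa5.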

How the data were processed

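Total RNA of 16 libraries was extracted with Trizol and sequenced, per the labels' protocols. The submitters' processing notes name STAR for alignment, HTSeq for counting and the build mm10, and neither versions nor annotation release nor strand setting is given in the sources used. The authors' deposited count is a whole number of reads per gene, not normalized. Reads given to no gene were 35.53 to 42.5% of all counts, mostly aligned to several places (27.53 to 35.43%), and stayed out of library sizes and tests. Libraries held 33236178 to 57195203 counts in genes.

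Libraries 1 and 2, and 3 and 4, of each group were added to samples A and B. The 8 neighbouring pairs differed by 3.1 to 6.45 times the Poisson variance at over 2000 counts, which is above sampling noise, and the 16 other pairs by 13.5 to 746 times. At 20 to 200 counts the ranges were 2.58 to 2.79 and 3.6 to 16.8 times. The labels do not state this grouping. Genes were filtered with filterByExpr, TMM was used for scaling, and a model with 1 mean per group was fitted to the 8 samples by the robust quasi-likelihood test of edgeR 4.0.16 (R 4.3.3), tested on simulated data. Benjamini-Hochberg adjustment ran over all 18074 genes, with 0.05 as the threshold. CPM are counts over TMM-scaled library sizes, and per kb values divide them by exon length. SE is the log2 fold change over the square root of F. Alternatives used DESeq2 1.42.0 and limma 3.58.1, other scalings and filters, the 16 libraries, and each sample left out.

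Members, roles, lists and tests were chosen with earlier results of these data known. Genes given with all samples were the 6 of smallest p in each comparison and the sensors and factors; others were named after their values were seen. If counting ignored strand, reads of overlapping genes on the opposite strand cannot be told apart, which concerns at most 10.3% of a member's exon bases (Hsp90b1). Promoter windows are RefSeq GRCm38.p6.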

Additional observations from a re-analysis of the deposited data

Results flagged for a closer look

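Among 60 groups of 4 libraries examined for the named genes, 2 held a library far from the other 3, and chance gives about 1 in 20 such groups. Hyou1 in cortical control library 3 had 22.08 CPM over plain library totals, against 26.82 to 27.79 CPM in the other 3 libraries. Ern1 in cortical control library 1 had 4.86 CPM on the same scale, against 5.40 to 5.45 CPM in the others. Each belongs to a sample made of 2 added libraries.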

How the results depend on the processing

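Of 760 values of 40 results for the named genes under 19 alternatives, 673 kept both direction and side of the threshold, 43 newly passed, 37 no longer passed and 7 changed sign. The sign changes were all in values that had not passed. Leaving out 1 sample at a time gave -0.17 to 1.34 for Asns and -0.122 to 0.404 for Ern1 in cortex. It gave -0.186 to 0.082 for Atf4 in hippocampus and -0.035 to 0.233 for Atf4 between regions, with the sign change without hippocampal control B in both. For Ddit3 in hippocampus it gave -0.012 (without tamoxifen B) to 0.063, with -0.008 without control B, and scaling by total counts gave -0.007. The number of members called ranged over these leave-outs from 0 to 4 in cortex and from 0 to 25 between the control regions. Counting the 16 libraries separately in edgeR called 8 members in hippocampus, 13 for the difference of effects and 28 between regions, among 318, 867 and 6982 of 16746 genes. Limma with correlated libraries called 0, 3 and 26 in the same order, among 3, 112 and 3380, so the 8 hippocampal calls were lost there. Limma with quality weights called 26 between regions among 4743 of 18074 genes. No pairing by sample letter was found (correlations of deviations from -0.405 to 0.283), and the letter as a replicate block left 0 members (72 genes in all) called between regions and 0 members in the other comparisons. The causes were not tested. With 2 samples per group, 0 calls do not exclude changes.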
